A study of Mus musculus with 20 samples.

Results

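Translation initiation and elongation factors are the proteins that load ribosomes onto messenger RNA and drive them along it. The genes described here are those in the count table with a symbol starting Eif1 to Eif6, Eef1 or Eef2, which takes in the kinases of eIF2 and the binding proteins of eIF4E. They number 71 of 29986 genes, and 65 of them passed the filter on low counts, against 14420 of all genes. By biotype 64 are protein-coding, 6 are processed pseudogenes and 1, Eif2c5, is a long noncoding RNA that matches by its name alone.

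Tenocytes, the fibroblasts of tendon, came from the tails of C57Bl/6 mice, wild type and adult. They were given recombinant insulin-like growth factor 1 (IGF1), a growth hormone mediator that signals through the IGF1 receptor, at 100 ng/mL for 1, 2, 6 or 24 h. The 0 h group is labelled as having no cytokine treatment, and each of the 5 times has 4 libraries of messenger RNA. The comparisons answer which transcripts differ with the length of IGF1 treatment. Whether the replicates are separate animals or cultures is not in the labels, so p-values measure only the spread between these libraries. Untreated cultures kept for 1 to 24 h were not analysed here, so IGF1 and time in culture cannot be told apart.

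As background, initiation begins when eIF2 brings the initiator transfer RNA to the small ribosomal subunit, helped by eIF1, eIF1A and eIF3. The cap-binding complex eIF4F (eIF4E, the scaffold eIF4G and the helicase eIF4A) then recruits that subunit to the messenger RNA. In elongation, eEF1A delivers each aminoacyl transfer RNA and eEF2 moves the ribosome on by a codon. Growth factors such as IGF1 are known to act on this machinery through mTOR, which phosphorylates the eIF4E-binding proteins, and messenger RNAs of many of its parts carry a pyrimidine tract at the start that links their translation to mTOR. RNA sequencing sees none of these protein steps and reads only transcript level.

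Depth was 13734425 to 22687173 counts per library. Levels are CPM, a library's counts for a gene rescaled to a common total by library size and edgeR's TMM factor, and fold changes are log2 ± SE from edgeR's quasi-likelihood fit with 4 libraries per time. A gene is said to have risen or fallen where its Benjamini-Hochberg adjusted p over all 14420 tested genes was under 0.05. Fewer cells of a type and less RNA per cell cannot be told apart in these bulk libraries. All 15 tendon fibroblast markers were tested, and their summed level was 73475 to 85032 CPM at 0 h. It was 64316 to 77718 CPM at 1 h, 54935 to 75090 at 2 h, 63445 to 71315 at 6 h and 73682 to 78350 at 24 h.

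The 2 h libraries varied more than the others. Of 65 tested genes, 41 were highest among the 2 h libraries in replicate 4, which gave 2.01% of its counts to the 71 genes, against 1.76 to 1.81% in the other 2 h libraries. The 13 macrophage markers summed to 218, 381, 141 and 147 CPM in 2 h replicates 1 to 4, against 84.7 to 107 CPM at 0 h. Outside 2 h the highest sums were 181 CPM in 1 h replicate 4 and 152 CPM in 6 h replicate 2. At 2 h 10 of the 11 tested were higher, against 20.2% of all tested genes. Of the macrophage markers, Fcgr1 was at 0 in 10 of the 20 libraries and Aif1 in 1. The 6 Schwann cell markers summed to 9.38, 48.8, 4.26 and 4.82 CPM in 2 h replicates 1 to 4, against 5.63 to 6.91 CPM at 0 h. Sox10 was at 0 in 3 libraries. The part of these cells in the 2 h values was not tested, so counts at 2 h are given with and without the libraries concerned.

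Most of these genes changed over the course of IGF1 treatment, as did most of all tested genes. In most groups of initiation factors several genes were higher at 2 and 6 h and few were at 24 h, while the abundant elongation factors Eef2 and Eef1a1 were lower at 6 and at 24 h. Of 65 tested genes, 53 changed at some time in the test over all 4 treated times, against a background of 63.7% of all tested genes. The 12 that did not were Eif2a, Eif2ak1, Eif2ak2, Eif2ak4, Eif3e, Eif3k, Eif4e3, Eif4ebp1, Eif4g3 and the pseudogenes Eif3s6-ps2, Eif3s6-ps4 and Eif4a-ps4.

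At 1 h, 13 genes were higher and 2 lower, where the background was 6.75% higher and 3.88% lower. With 1 library left out, that count of 13 held only without 2 h replicate 2 or 3. It was 20 without 2 h replicate 4 and 6 to 9 without any 1 of the others. Over all genes 1247 of 14676 were higher without 2 h replicate 4, 770 of 14661 without 1 h replicate 2 and 973 of 14420 in the main fit. With no filter on low counts 9 were higher, and 854 of 29986 over all genes. At 2 h, 28 were higher and 8 lower, against 20.2% and 17.5% of all tested genes. Without 2 h replicate 4 these counts were 29 and 11, and with 2 h replicates 3 and 4 alone they were 32 and 5. Over all genes these fits called 2974 and 2724 of 14676, and 2486 and 2329 of 14950. By 6 h, 33 were higher and 7 lower, against 20.6% and 19.6%. At 24 h, 3 were higher and 8 lower, against 12.7% and 13.2%. A fit of the 0 and 24 h libraries alone gave 6 and 13, where 2455 and 2483 of all 13656 tested genes were higher and lower. In the main comparison 1 gene was higher when 0 h replicate 2 was left out, where 1609 of all 14659 tested genes were. The median log2 fold change over the 65 genes was 0.10, 0.17, 0.20 and -0.05 at 1, 2, 6 and 24 h, beside 0.003, -0.006, -0.002 and 0.001 over all tested genes.

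From 6 to 24 h, 35 of the 65 fell and 4 rose, against backgrounds of 18.2% and 17.6%. The 4 that rose, Eef2, Eef2k, Eif2d and Eif4b, were all below their 0 h level at 6 h by fitted value. Between 1 and 2 h, 14 rose and 2 fell, against 7.5% and 8.84%, and 9 rose without 1 h replicate 1. From 2 to 6 h, 9 rose and 6 fell, against 13.6% and 13.7%, and without 2 h replicate 4 the count that rose was 22. Fits of only the libraries compared gave 5 and 0 from 1 to 2 h and 4 and 2 from 2 to 6 h. For these steps the share over all genes was counted in the main fit alone. The changed counts are thus not read as a trait of these genes.

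**Figure D1:**
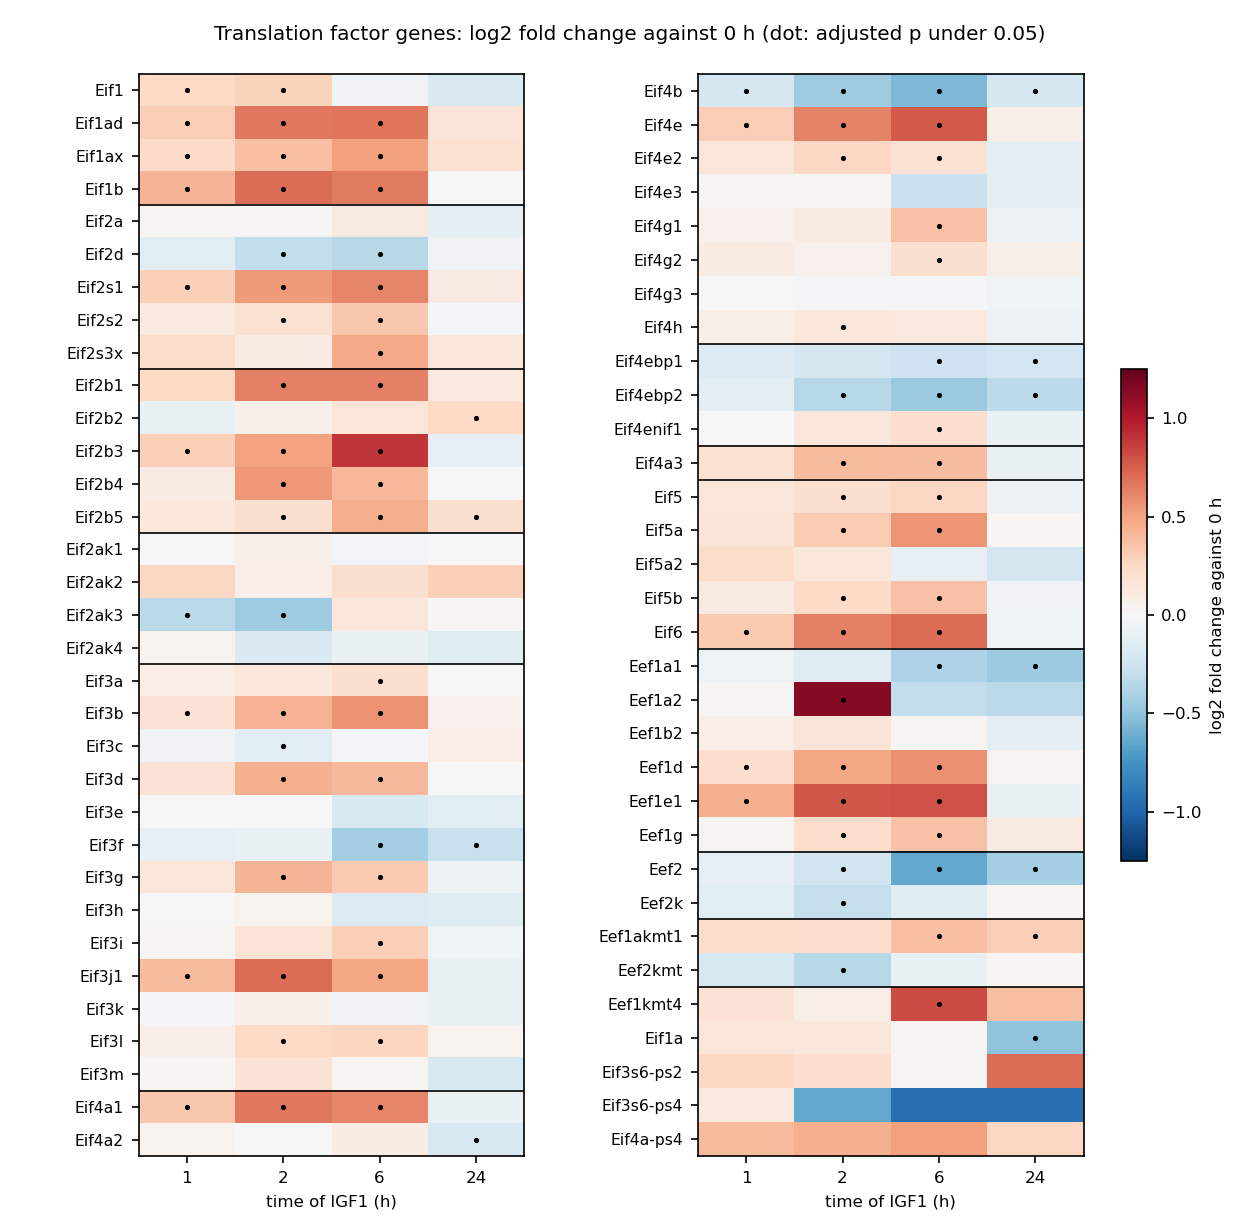
Log2 fold change against 0 h (colour) of the 65 tested genes at 1, 2, 6 and 24 h of IGF1, in blocks by role, with a dot where the adjusted p was under 0.05. Red fills most of the initiation factor blocks at 2 and 6 h, Eif4b, Eef1a1 and Eef2 are blue at 6 h, and few dots remain at 24 h.

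Summed over the 71 genes, the mean level was 18428, 18532, 18319, 17252 and 15802 CPM at 0, 1, 2, 6 and 24 h. Eef1a1 and Eef2 made up 47.1% of that sum at 0 h and 36% at 6 h. The remaining genes summed to 9745 CPM at 0 h, 11042 CPM at 6 h and 9402 CPM at 24 h.

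Levels between genes are compared per kilobase of exon. Eef1a1 stood first at 2055 ± 26.8 CPM per kb at 0 h (SD, n = 4) and Eef2 second at 1072 ± 67.4. The next was Eef1b2, part of the exchange factor of eEF1A, at 219 ± 9.82. Among initiation factors Eif5a (151 ± 5.44) and Eif3c (140 ± 4.08) led, and the cap-binding Eif4e was at 9.39 ± 0.710. Eif2b3, at 3.54 ± 0.335, was the 58th of 65. Neighbours lower in this order often lie within each other's SD, as do Eef2k (9.41 ± 0.370) and Eif4e.

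**Figure D2:**
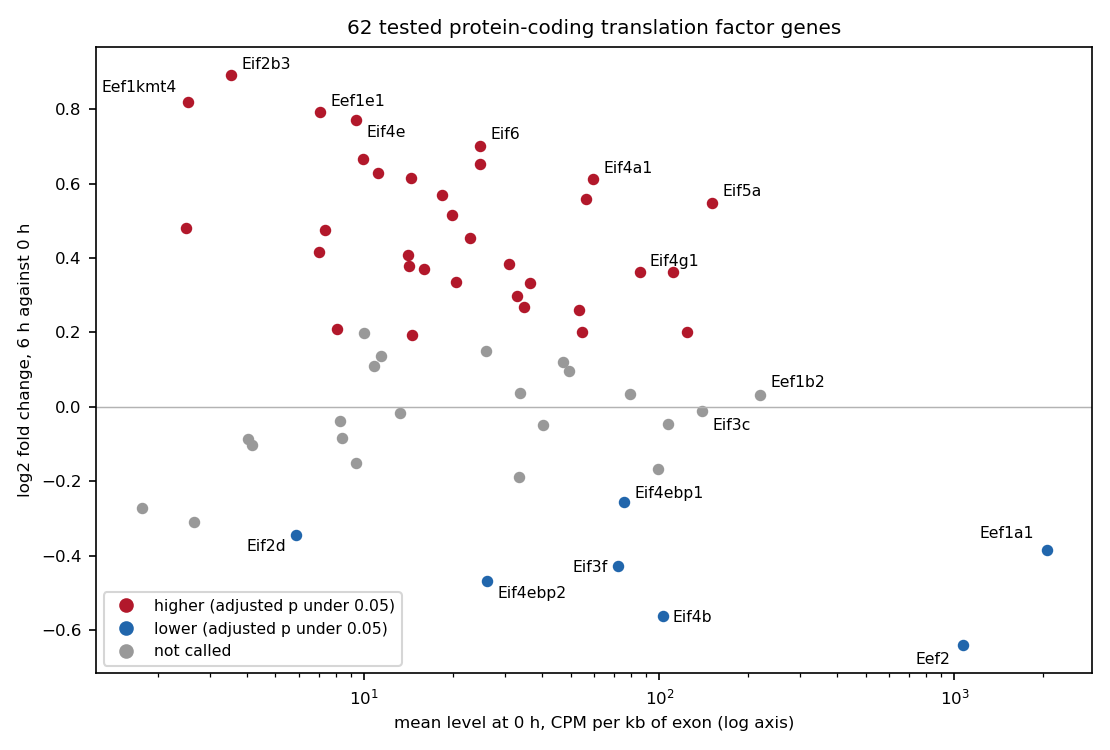
Mean level at 0 h in CPM per kb of exon (log axis) against the log2 fold change at 6 h for the 62 tested protein-coding genes, coloured by call. Eef1a1 and Eef2, the highest at 0 h, lie below 0, and the genes with the largest rises, Eif2b3 and Eef1kmt4, lie at the low end.

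Promoter sequence was compared because so many of the genes moved together. RefSeq promoter windows on GRCm38.p6, from 250 bases before to 50 bases after a start, matched 50 of the 71 genes with 65 windows. The E-box CACGTG, the letters bound by MYC and related factors, was in 14 of the 65 windows and in 7.15% of 32851 mouse windows. It is its own reverse complement, so 1 strand covers both. Windows of a gene can overlap, and 1 box of Eif5a was counted in 2 of them. The 12 genes with it were Eef2, Eef2k, Eif1b, Eif3a, Eif3f, Eif3k, Eif4a1, Eif4e, Eif4g1, Eif4h, Eif5a and Eif5a2. Of these 12, 6 were higher and 2 lower at 6 h, and of the 37 tested genes with a window but no such box, 19 were higher and 4 lower. At that time 20.6% of all tested genes were higher and 19.6% lower. Not shown are a box of Eif4g1 15 bases after its start and a further box of Eif5a, 178 bases before another of its starts. Other boxes of 5 genes that rose and 2 that fell are shown with the box in capitals, 5′ to 3′ on the gene's strand, to let the flanks be compared.
Eif4e, chr3:138527018-138527067, plus strand, box 228 bases before the start: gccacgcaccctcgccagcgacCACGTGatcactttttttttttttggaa
Eif4e, chr3:138527182-138527231, plus strand, box 64 bases before the start: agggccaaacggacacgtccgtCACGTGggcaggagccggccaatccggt
Eif4a1, chr11:69672585-69672634, minus strand, box 189 bases before the start: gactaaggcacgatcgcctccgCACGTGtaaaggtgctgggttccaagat
Eif1b, chr9:120492560-120492605, plus strand, box 24 bases before the start: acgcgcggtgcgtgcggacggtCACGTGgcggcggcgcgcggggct
Eif4g1, chr16:20672651-20672700, plus strand, box 54 bases before the start: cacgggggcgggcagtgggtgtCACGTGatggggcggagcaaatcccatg
Eif5a, chr11:69921433-69921482, minus strand, box 74 bases before the start: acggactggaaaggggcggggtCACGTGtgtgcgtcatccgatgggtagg
Eef2, chr10:81176566-81176615, plus strand, box 43 bases before the start: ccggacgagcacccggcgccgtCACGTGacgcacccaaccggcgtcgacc
Eif3f, chr7:108934325-108934374, plus strand, box 68 bases before the start: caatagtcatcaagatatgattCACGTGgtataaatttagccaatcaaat

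The box was thus present in genes of both directions. Eif4e carried it at 2 places and rose, and Eif5a2 carried it at 2 places and was not called at 6 h. Eef2 and Eif3f carried it and fell. A match is a description of letters and says nothing of binding.

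A start on C followed by at least 4 pyrimidines, within 2 bases of the annotated start, was sought as the mark of a pyrimidine tract. It was found in 10 of the 65 windows and in 8.96% of all windows. The genes were Eef1a1, Eif1ad, Eif2ak4, Eif2b5, Eif2c5, Eif2s3x, Eif3b, Eif3f, Eif3l and Eif4g1. Of the 9 tested, 6 were higher and 2 lower at 6 h, and of the 40 without it 19 were higher and 4 lower. The shares of all tested genes were 20.6% and 19.6%. A tract further than 2 bases from the annotated start was not counted, so these counts do not show its absence. The Eif4b window holds a C followed by at least 4 pyrimidines, but further before the annotated start than that. The matches of Eef1a1 and Eif3f, both lower at 6 h, are in capitals below. Where transcription starts in these cells was not tested, so a match at an annotated start may lie outside the transcript. Beside these matches are the annotated starts of Eef2 and Eif4b, which fell and have no such match within 2 bases.
Eef1a1, chr9:78481710-78481739, minus strand: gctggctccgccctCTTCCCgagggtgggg
Eif3f, chr7:108934400-108934429, plus strand: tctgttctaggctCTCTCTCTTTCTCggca
Eef2, chr10:81176616-81176645, plus strand: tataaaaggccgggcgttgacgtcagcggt
Eif4b, chr15:102073758-102073787, plus strand: ggtcttcccgtcggacgccgcgccaccccc

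The C/EBP-ATF element TGATGNAAN, searched on both strands, was in the windows of Eef2k and Eif2s3x, against 3.95% of all windows. The cyclic AMP element TGACGTCA was in that of Eef2 alone, against 1.79%.

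Several genes of the eIF1 group, which scans for the start codon, were higher early. All 4 tested genes (Eif1 and its relative Eif1b, which guard start codon choice, Eif1ax, which helps scanning, and Eif1ad, which carries an eIF1A domain) were higher at 1 and at 2 h. Leaving out each of the 20 libraries in turn ended the 1 h call of Eif1 in 17 fits (adjusted p up to 0.129), of Eif1ax in 15 (up to 0.215) and of Eif1ad in 1 (adjusted p = 0.0505, without 1 h replicate 1). With no filter on low counts Eif1ax at 1 h was 0.22 (adjusted p = 0.0609). At 6 h 3 of the 4 were higher, and none at 24 h. Of all tested genes, 6.75%, 20.2%, 20.6% and 12.7% were higher at 1, 2, 6 and 24 h. Eif1b had log2 fold changes of 0.43 ± 0.080, 0.70 ± 0.079 and 0.65 ± 0.079 at 1, 2 and 6 h. Eif1ad followed with 0.31 ± 0.078, 0.66 ± 0.078 and 0.67 ± 0.078. Their exons overlap those of genes on the opposite strand by 12.7% (Eif1b) and 15.3% (Eif1ad, with Banf1), and the use of strand in counting is not given.

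Eif1 kept a shorter course. Its level was 214 to 235 CPM at 0 h, 257 to 277 CPM at 1 h and 210 to 226 CPM at 6 h, so that the 1 h libraries all lay above 0 h and the 6 h libraries overlapped it. The fall from 2 to 6 h was -0.32 ± 0.077 (adjusted p = 0.0025).

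Eif1a, on chromosome 18, codes for a close relative of the X-linked Eif1ax, and reads could be shared between them. Its libraries read 286, 349, 335 and 354 CPM at 0 h and 234, 231, 227 and 243 CPM at 24 h. Each 24 h library was below each 0 h library, and the fold change was -0.50 ± 0.070 (adjusted p = 3.05e-06). At 1, 2 and 6 h it was 0.15, 0.14 and 0.03, none past the threshold. Eif1ax gave 0.51 ± 0.073 at 6 h (adjusted p = 2.28e-06) and 0.19 ± 0.074 at 24 h (adjusted p = 0.0566).

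The subunits of eIF2, the carrier of initiator transfer RNA, rose to different degrees. Eif2s1, the alpha subunit that stress kinases phosphorylate, rose by 0.30 ± 0.073, 0.53 ± 0.073 and 0.61 ± 0.073 at 1, 2 and 6 h. Eif2s2 (beta) rose at 2 h by 0.19 ± 0.071 (adjusted p = 0.032) and at 6 h by 0.34 ± 0.071. The 2 h value for Eif2s2 was 0.12 without 2 h replicate 4 (adjusted p = 0.126). Eif2s3x (gamma) rose at 6 h, by 0.48 ± 0.10. Eif2d, which can place initiator transfer RNA without eIF2, went the other way, with -0.30 ± 0.082 at 2 h and -0.34 ± 0.082 at 6 h. Eif2a, a further factor with that ability, gave between -0.11 and 0.11 at the 4 times, none past the threshold.

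The eIF2B complex, which reloads eIF2 with GTP, rose in 4 of 5 subunits at 2 h and at 6 h. Of all tested genes 20.2% and 20.6% were higher at these times. Eif2b3 (chr4:117019402-117087306, plus strand), its gamma subunit and part of the catalytic pair, had the highest 6 h fold change of all 65 genes. Its levels were 20.1, 25.2, 24.1 and 22.9 CPM at 0 h, 43.9, 44.3, 38.7 and 43.9 CPM at 6 h, and 20.4, 21.6, 23 and 20.6 CPM at 24 h. The 6 h libraries all lay above both other times, which overlapped each other. The rise at 6 h was 0.89 ± 0.094 (adjusted p = 1.80e-08), and from 6 to 24 h the level fell by 1.00 ± 0.096 on the log2 scale (adjusted p = 4.00e-09). At 1 h the value was 0.30 ± 0.096 (adjusted p = 0.041), and it missed the threshold in 15 of 20 fits that left out 1 library (adjusted p up to 0.194).

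Eif2b1 (alpha) rose by 0.63 ± 0.085 at both 2 and 6 h and Eif2b4 (delta) by 0.55 ± 0.094 and 0.42 ± 0.094. Eif2b5, the catalytic epsilon subunit, was higher at 2 h by 0.20 (adjusted p = 0.0115). That call ended with no filter (adjusted p = 0.0768), in a fit of the 0 and 2 h libraries alone (adjusted p = 0.0857) and without 2 h replicate 4 (adjusted p = 0.0582). Eif2b5 rose by 0.45 ± 0.061 at 6 h and was still higher at 24 h, by 0.20 ± 0.061 (adjusted p = 0.0153). The 24 h call was lost with no filter (0.19, adjusted p = 0.117). Eif2b2 (beta) passed the threshold at 24 h, with 0.24 ± 0.081 (adjusted p = 0.0257), but missed it without 0 h replicate 2 or 3 or 24 h replicate 2 or 3 (adjusted p from 0.0501 to 0.0737).

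Of the 4 kinases that phosphorylate eIF2 under stress, 1 changed at some time, against 63.7% of all tested genes. Eif2ak3 codes for PERK, the sensor of unfolded protein in the endoplasmic reticulum. Its libraries read 70.1, 64.8, 67.4 and 71.8 CPM at 0 h, 55.6, 51.4, 58.9 and 50.7 CPM at 1 h, and 50.8, 50.4, 51.5 and 48.7 CPM at 2 h. By 6 h they read 75.4, 72.5, 76.7 and 76.8 CPM. The 1 and 2 h libraries were all below the 0 h libraries and the 6 h libraries all above them. The fold changes were -0.34 ± 0.059 at 1 h (adjusted p = 1.76e-04), -0.44 ± 0.059 at 2 h (adjusted p = 1.03e-06) and 0.14 ± 0.058 at 6 h (adjusted p = 0.0605). From 2 to 6 h Eif2ak3 rose by 0.58 ± 0.059 (adjusted p = 2.44e-08).

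The other kinases did not pass the threshold at any time. Eif2ak2, the double-stranded RNA sensor PKR, read 45, 54.1, 61.1 and 44.3 CPM at 0 h and 64, 59.1, 55.3 and 73.4 CPM at 24 h, with overlap and a fold change of 0.30 ± 0.13 (adjusted p = 0.084). Eif2ak4, the amino acid sensor GCN2, read 29.3, 27.7, 32 and 31.7 CPM at 0 h and 27.6, 28.5, 26.5 and 24.1 CPM at 2 h. Its fold change there was -0.18 ± 0.091 (adjusted p = 0.133). Eif2ak1, the heme-regulated kinase, lay between -0.04 and 0.06 at the 4 times.

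The eIF3 scaffold, the largest initiation factor, did not move as a block. Of 13 tested subunit genes, 2 were higher at 1 h, 5 higher and 1 lower at 2 h, 7 higher and 1 lower at 6 h, and 1 lower at 24 h. Of all tested genes, 6.75%, 20.2%, 20.6% and 12.7% were higher at these times and 3.88%, 17.5%, 19.6% and 13.2% lower. Eif3b, a core subunit, rose by 0.43 ± 0.052 at 2 h and 0.56 ± 0.052 at 6 h. Its 1 h value of 0.18 ± 0.052 (adjusted p = 0.0203) missed the threshold without 0 h replicate 2, 3 or 4 or 1 h replicate 1, 2 or 3 (adjusted p up to 0.116) and with no filter (adjusted p = 0.235). Eif3d, a subunit that can bind the cap of some messenger RNAs, gave 0.44 ± 0.068 at 2 h and 0.41 ± 0.068 at 6 h, and 43.3% of its exonic bases are shared with an antisense gene of far fewer counts. Eif3a, Eif3g, Eif3i and Eif3l rose at 6 h by 0.20 to 0.33, though the call of Eif3a ended without 0 h replicate 1 or 4 or 6 h replicate 4 (adjusted p up to 0.107).

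Eif3j1, a loosely held subunit with a part in ribosome recycling, had the largest eIF3 rise. It read 17, 13.9, 16.3 and 10.8 CPM at 0 h and 21.9, 23.5, 25.3 and 23.5 CPM at 2 h. All 2 h libraries were above all 0 h libraries, with a fold change of 0.70 ± 0.11 (adjusted p = 1.89e-05). Of its exonic bases 19% are shared with Spg11 on the opposite strand. Its rise at 1 h, 0.40 ± 0.11 (adjusted p = 0.0219), missed the threshold without 0 h replicate 4 (0.26, adjusted p = 0.139).

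Eif3f moved the other way. It lay at 217, 203, 206 and 213 CPM at 0 h, at 187, 166, 199 and 243 CPM at 2 h, at 154, 161, 154 and 155 CPM at 6 h and at 168, 172, 179 and 174 CPM at 24 h. The 6 and 24 h libraries all lay below 0 h, by -0.43 ± 0.073 (adjusted p = 2.77e-05) and -0.28 ± 0.073 (adjusted p = 0.00503). At 2 h the value was -0.08 (adjusted p = 0.418) with all libraries and -0.19 (adjusted p = 0.00302) without 2 h replicate 4. Eif3e, Eif3h, Eif3k and Eif3m did not pass the threshold at any single time against 0 h. Of these, Eif3h and Eif3m changed in the test over all times (adjusted p = 0.0386 and 0.00666). Eif3c was lower at 2 h by -0.14 ± 0.050 (adjusted p = 0.0282). That call ended when 0 h replicate 3 or 2 h replicate 2 was left out (adjusted p up to 0.0991) and with no filter (adjusted p = 0.163).

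Within the cap-binding complex, the genes for the cap binder and a helicase rose by 1 h. Eif4e (chr3:138526179-138559696, plus strand) codes for the protein that holds the cap. Its libraries read 51.5, 54.6, 61.4 and 58 CPM at 0 h and 91.5, 100.2, 98.9 and 93.9 CPM at 6 h. Every 6 h library was above every 0 h library. The fold changes were 0.31 ± 0.075, 0.62 ± 0.075 and 0.77 ± 0.075 at 1, 2 and 6 h (adjusted p at 6 h = 4.25e-09) and 0.06 ± 0.076 at 24 h (adjusted p = 0.603). Of its paralogs, Eif4e2, which can repress translation, rose by 0.26 ± 0.054 at 2 h and 0.19 ± 0.054 at 6 h, and Eif4e3 stayed at 2.97 to 5.58 CPM in all libraries without passing the threshold.

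Eif4a1 (chr11:69666936-69672423, minus strand), the helicase that unwinds messenger RNA, was high at 2 and at 6 h. It read 245, 254, 259 and 273 CPM at 0 h and 386, 411, 373 and 458 CPM at 2 h, with no overlap. The fold change was 0.34 ± 0.061 at 1 h, 0.66 ± 0.061 at 2 h (adjusted p = 2.35e-09) and 0.61 ± 0.061 at 6 h, and Eif4a1 fell from 6 to 24 h by -0.70 ± 0.061. Its paralog Eif4a2 read 254, 259, 273 and 271 CPM at 0 h and 286, 255, 252 and 263 CPM at 2 h, groups that overlapped. At 24 h Eif4a2 read 239, 215, 239 and 235 CPM, with a fold change of -0.19 ± 0.055 (adjusted p = 0.0118), or -0.15 without 24 h replicate 2 (adjusted p = 0.0712).

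The ratio of the helicase pair within each library tests their difference without scaling. The log2 ratio of Eif4a1 to Eif4a2 counts was -0.08 to 0.01 at 0 h, 0.24 to 0.31 at 1 h, 0.43 to 0.80 at 2 h and 0.42 to 0.54 at 6 h. It was above all 0 h libraries in 4 of 4 libraries at each of these times, with mean differences of 0.30, 0.66 and 0.52. Each gave p = 0.0286 in a two-sided exact permutation test, the smallest that 4 against 4 allows, and 0.0490 after adjustment over 12 comparisons of 3 ratios. At 24 h the difference was 0.10 (exact permutation p = 0.114, adjusted 0.152).

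**Figure D3:**
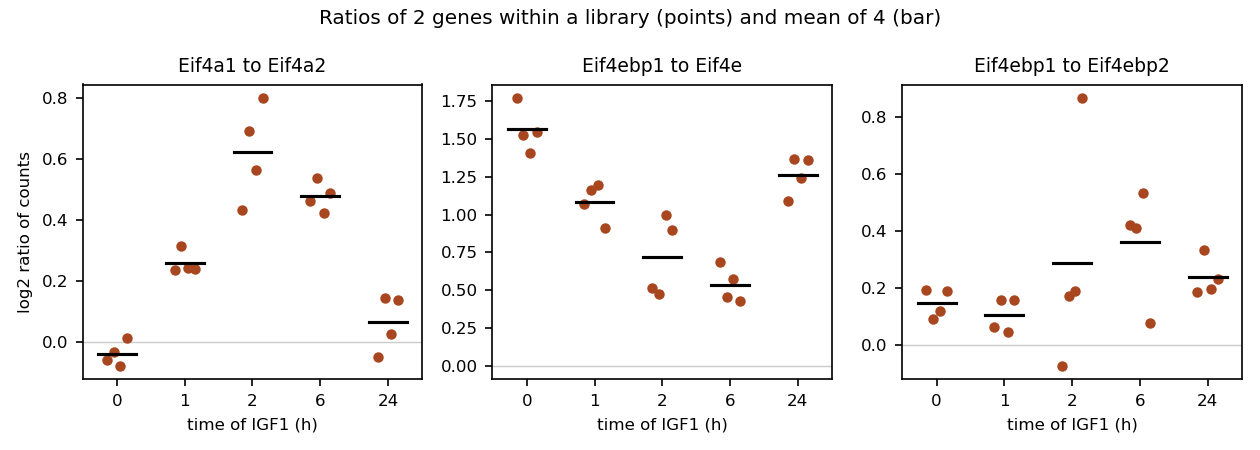
Log2 ratio of the counts of 2 genes within each library (points) and the mean of 4 (bar) at 0, 1, 2, 6 and 24 h of IGF1, for 3 pairs. The ratio of Eif4a1 to Eif4a2 is above its 0 h values at 1 to 6 h, that of Eif4ebp1 to Eif4e is below them at every time, and that of Eif4ebp1 to Eif4ebp2 overlaps them.

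Of the scaffold genes, Eif4g1 and Eif4g2 were higher at 6 h. Eif4g1 read 633, 639, 607 and 623 CPM at 0 h and 845, 789, 766 and 813 CPM at 6 h, all above 0 h, with a fold change of 0.36 ± 0.067 (adjusted p = 8.91e-05). Its 2 h libraries spread from 552 to 729 CPM with replicate 4 lowest, and the 2 h value was 0.10 (adjusted p = 0.28), or 0.17 (adjusted p = 0.00415) without that library. Eif4g2, a scaffold for cap-independent starts, rose by 0.20 ± 0.053 at 6 h, and Eif4g3 lay between -0.05 and 0.00 throughout.

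Eif4b, whose protein stimulates the helicase, fell while the helicase gene rose. It read 454, 463, 465 and 449.8 CPM at 0 h, 404, 401, 381 and 397 CPM at 1 h, and 317, 312, 301 and 312 CPM at 6 h. No treated library at these times reached the 0 h range. The fold changes were -0.21 ± 0.051, -0.45 ± 0.051 and -0.56 ± 0.051 at 1, 2 and 6 h (adjusted p at 6 h = 1.22e-09) and -0.21 ± 0.051 at 24 h (adjusted p = 0.00242). Eif4b rose again from 6 to 24 h, by 0.35 ± 0.051. Eif4h, a protein of like function, gave 0.13 ± 0.050 at 2 h (adjusted p = 0.0446) and 0.12 ± 0.050 at 6 h (adjusted p = 0.0586). The 2 h call of Eif4h ended in 16 of 20 fits that left out 1 library.

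The eIF4E-binding proteins, which block eIF4G from eIF4E until mTOR phosphorylates them, were lower. Eif4ebp2 read 154, 148, 149.6 and 149 CPM at 0 h and 110.1, 103, 102 and 119.5 CPM at 6 h. The groups did not overlap, and the fold change was -0.36 ± 0.075 at 2 h, -0.47 ± 0.075 at 6 h (adjusted p = 1.34e-05) and -0.33 ± 0.075 at 24 h (adjusted p = 0.00166). Eif4ebp1 showed smaller changes. It read 176, 158, 163 and 169.8 CPM at 0 h, 123, 125, 148 and 179.8 CPM at 2 h, 147, 137, 147 and 126 CPM at 6 h and 136, 149.9, 143 and 135 CPM at 24 h.

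The 6 and 24 h libraries of Eif4ebp1 were all below 0 h, while 2 h replicate 4 was above it. At 2 h the fold change was -0.21 ± 0.086 (adjusted p = 0.0561), and -0.34 (adjusted p = 8.42e-05) without 2 h replicate 4. Later values were -0.26 ± 0.086 at 6 h (adjusted p = 0.0197) and -0.24 ± 0.087 at 24 h (adjusted p = 0.0438). The test over all times did not reach the threshold (adjusted p = 0.0622). At 6 h, leaving out 0 h replicate 1 gave -0.22 (adjusted p = 0.0657) and leaving out 6 h replicate 4 gave -0.21 (adjusted p = 0.0819). The 24 h call was lost in 13 of 20 fits that each left out 1 library, with values between -0.25 and -0.21. It was also lost with the replicate number as a block (adjusted p = 0.063). Eif4enif1, which carries eIF4E into the nucleus, rose at 6 h by 0.21 ± 0.062, a call that ended with no filter (adjusted p = 0.0511) and without 6 h replicate 2 (adjusted p = 0.0517).

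The transcript of the binding protein was also set against that of its target. The log2 ratio of Eif4ebp1 to Eif4e counts was 1.40 to 1.77 at 0 h, 0.91 to 1.20 at 1 h, 0.47 to 1.00 at 2 h, 0.43 to 0.69 at 6 h and 1.09 to 1.36 at 24 h. No treated group overlapped 0 h, and the mean differences were -0.48, -0.84, -1.03 and -0.30 (exact permutation p = 0.0286 each, adjusted 0.0490). The 24 h difference gave p up to 0.0571 in the exact permutation test when 1 library was left out. The ratio of Eif4ebp1 to Eif4ebp2 overlapped 0 h at every time, with differences of -0.04, 0.14, 0.21 and 0.09 (adjusted permutation p from 0.129 to 0.714).

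Of 5 tested genes for subunit joining, eIF5A and eIF6, 4 were higher at 2 and at 6 h, against 20.2% and 20.6% of all tested genes. Eif5, which triggers GTP hydrolysis on eIF2, rose by 0.26 ± 0.055 at 6 h, and Eif5b, which joins the large subunit, by 0.37 ± 0.058. Eif4a3, the helicase relative that marks exon junctions, rose by 0.39 ± 0.074 at 2 h and 0.38 ± 0.074 at 6 h. Eif6, which keeps the large ribosomal subunit from joining too early and serves in its assembly, read 65.8, 63.5, 68.1 and 68.8 CPM at 0 h and 113, 108, 107 and 106 CPM at 6 h. The groups were well apart, with fold changes of 0.32 ± 0.083, 0.63 ± 0.083 and 0.70 ± 0.083 at 1, 2 and 6 h (adjusted p at 6 h = 1.18e-07). The 1 h call of Eif6 ended without 0 h replicate 2 (0.29, adjusted p = 0.0514) and without 1 h replicate 2 (0.26, adjusted p = 0.07).

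Eif5a codes for the hypusine-bearing factor that helps ribosomes past stalling stretches. Its level was 364, 351, 346 and 374 CPM at 0 h and 541, 546, 518 and 495 CPM at 6 h, with no overlap, and it rose by 0.32 ± 0.065 at 2 h and 0.55 ± 0.065 at 6 h (adjusted p = 1.37e-07). Its paralog Eif5a2 read 15.2 to 26.7 CPM. It changed in the test over all times (adjusted p = 0.00412) but passed at no single time against 0 h, save at 2 h without 2 h replicate 4 (0.24, adjusted p = 0.0486). At 24 h Eif5a read 348 to 379 CPM.

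**Figure D4:**
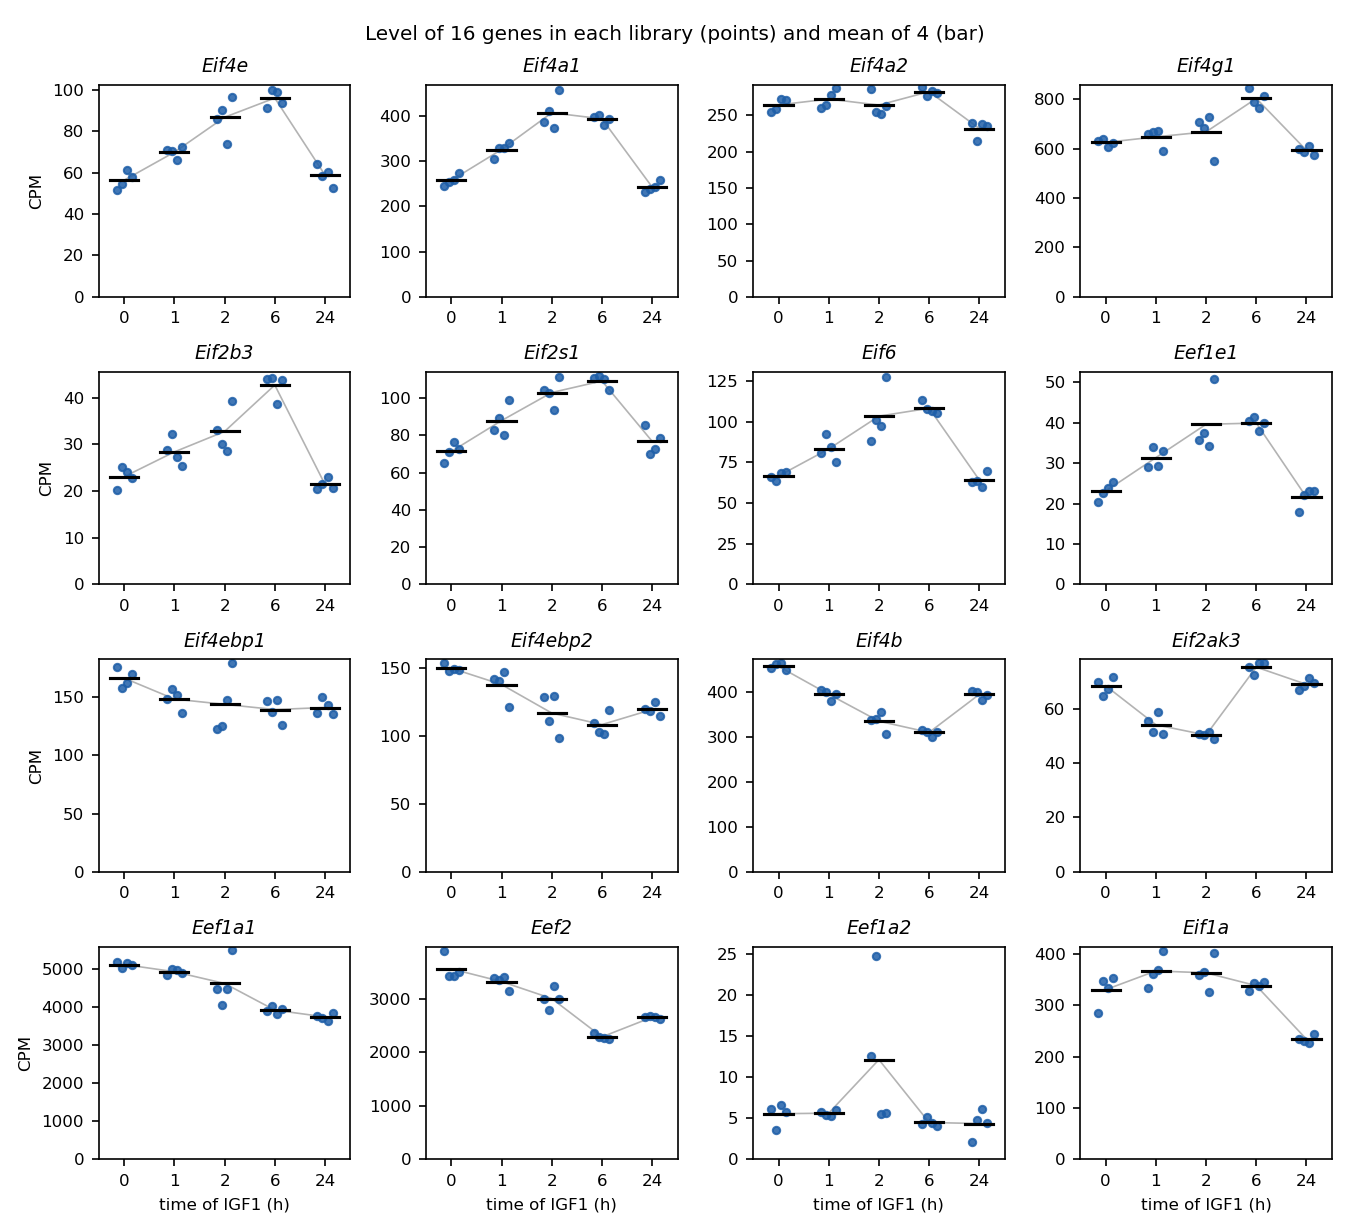
Level in CPM of 16 genes in each of the 20 libraries (points) with the mean of 4 (bar) at 0, 1, 2, 6 and 24 h of IGF1. Eif4e, Eif2b3, Eif6 and Eef1e1 are high at 6 h and back at the 0 h level at 24 h, Eef1a1 and Eef2 are lower at 6 and 24 h, and 2 libraries carry the high 2 h mean of Eef1a2.

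Elongation factor transcripts moved in both directions. The translocase gene Eef2 (chr10:81176631-81182498, plus strand) fell furthest of all 65 genes at 6 h among those called. It read 3894, 3435, 3419.7 and 3499 CPM at 0 h, 2989, 2793, 3242 and 2999.7 CPM at 2 h, 2356, 2279, 2261 and 2255 CPM at 6 h, and 2663, 2677, 2655 and 2632 CPM at 24 h. The 6 h libraries formed the lowest group and the 24 h libraries lay between 6 h and 0 h without overlap. The fold changes were -0.24 ± 0.055 at 2 h (adjusted p = 9.15e-04), -0.64 ± 0.055 at 6 h (adjusted p = 4.62e-10) and -0.42 ± 0.055 at 24 h (adjusted p = 1.01e-06), and the rise from 6 to 24 h was 0.22 ± 0.055 (adjusted p = 0.0029).

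Eef2k, the kinase that inhibits eEF2, was lower at 2 h. It read 70.9, 68.9, 66.2 and 72.6 CPM at 0 h and 60.5, 49.2, 60.2 and 57.2 CPM at 2 h, all below 0 h, with a fold change of -0.30 ± 0.066. At 6 h it was -0.15 ± 0.066 (adjusted p = 0.0694) and at 24 h 0.02.

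Eef1a1, the main carrier of aminoacyl transfer RNA, fell later and stayed low. Its libraries read 5180.4, 5029, 5158 and 5120.0 CPM at 0 h, 4468, 4057, 4473 and 5497 CPM at 2 h, 3888, 4022, 3831 and 3947 CPM at 6 h, and 3778, 3721, 3635 and 3838 CPM at 24 h. All 6 and 24 h libraries were below 0 h, and at 2 h replicate 4 alone was above it. The fold changes were -0.39 ± 0.064 at 6 h (adjusted p = 2.02e-05) and -0.45 ± 0.064 at 24 h (adjusted p = 3.63e-06). At 2 h the value was -0.15 ± 0.064 (adjusted p = 0.0696), and -0.24 (adjusted p = 4.81e-05) without 2 h replicate 4.

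The exchange factor subunits that recharge eEF1A did not follow it down at 6 h. Eef1d rose by 0.48 ± 0.065 at 2 h and 0.57 ± 0.065 at 6 h. Its 1 h value of 0.21 ± 0.066 (adjusted p = 0.0317) missed the threshold in 16 of 20 fits that left out 1 library (adjusted p up to 0.126) and with no filter (adjusted p = 0.113). Eef1g rose by 0.22 ± 0.065 at 2 h and 0.36 ± 0.065 at 6 h, and Eef1b2 gave 0.03 ± 0.079 at 6 h (adjusted p = 0.792). Eef1b2 read 796 CPM in 2 h replicate 4 against 539 to 580 CPM in the other 2 h libraries. At 24 h it read 492.4 to 529.4 CPM, below the 529.96 to 582.4 CPM of 0 h, but was not called. It changed in the test over all times (adjusted p = 0.0287). Eef1e1, a small protein held in the aminoacyl transfer RNA synthetase complex, read 20.4, 22.6, 23.9 and 25.3 CPM at 0 h and 40.5, 41.4, 37.9 and 39.9 CPM at 6 h. Its groups did not overlap, with fold changes of 0.44 ± 0.10, 0.78 ± 0.10 and 0.79 ± 0.10 at 1, 2 and 6 h (adjusted p at 6 h = 6.32e-07).

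Eef1a2, the carrier form known from muscle and nerve, was scarce and is singled out after its values were seen. It read 3.6 to 6.56 CPM at 0 h and 12.6, 24.7, 5.53 and 5.62 CPM at 2 h. Replicates 1 and 2 alone were high, the 2 h libraries with the most macrophage and Schwann cell marker RNA. The 2 h value of 1.14 ± 0.39 (adjusted p = 0.029) became 0.53 (adjusted p = 0.144) when 2 h replicate 2 was left out and 1.13 (adjusted p = 0.0529) when 2 h replicate 1 was. With 2 h replicates 3 and 4 alone it was 0.01 (adjusted p = 0.985).

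The methyltransferase genes of the elongation factors were low in level. Eef1akmt1 rose by 0.38 ± 0.099 at 6 h. Its 24 h value was 0.31 ± 0.10 (adjusted p = 0.0231), a call that ended without 0 h replicate 2 or 3 or 24 h replicate 1 or 4 (adjusted p up to 0.0817) and with no filter (adjusted p = 0.0883). Eef2kmt was lower at 2 h by -0.34 ± 0.088, or -0.26 with 2 h replicates 3 and 4 alone (adjusted p = 0.061), and shares 17.6% of its exonic bases with Alg1 on the opposite strand. Eef1kmt4 read 4.96, 3.65, 4.53 and 3.13 CPM at 0 h and 7.84, 6.86, 6.94 and 7.03 CPM at 6 h, with no overlap and a fold change of 0.82 ± 0.20 (adjusted p = 0.00143). It shares 30.7% of its exonic bases with a gene on the same strand and 8.86% with Alg3 on the opposite one, so part of its reads may belong to those.

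The 6 genes that failed the filter were near 0. Over all 20 libraries Eif4ebp3, a further eIF4E-binding protein, had 59 counts, Eif5al3-ps 54, Eif3j2 43, Eif3s6-ps1 34, and Eif1-ps3 and Eif2c5 1 each. The 3 pseudogenes that passed it, Eif4a-ps4, Eif3s6-ps2 and Eif3s6-ps4, stayed at 1.24 CPM or less and were not called at any time. The pseudogenes resemble their parent genes, and how shared reads were assigned is not given.

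Of 36 listed partners of these factors, 35 were tested. At 1, 2, 6 and 24 h, 6, 15, 11 and 4 were higher, or 17.1%, 42.9%, 31.4% and 11.4%, against 6.75%, 20.2%, 20.6% and 12.7% of all tested genes. The lower calls were 4, 7, 7 and 6, or 11.4%, 20%, 20% and 17.1%, against 3.88%, 17.5%, 19.6% and 13.2%, which is near the background from 2 h on. The largest values were negative and came at 2 h, in Pdcd4, Trib3 and Ppp1r15a. Pdcd4, an inhibitor of the eIF4A helicase, fell by 0.52 ± 0.074 at 1 h, 1.40 ± 0.077 at 2 h (adjusted p = 9.51e-14) and 0.74 ± 0.075 at 6 h. Ppp1r15a, the inducible subunit that leads a phosphatase to eIF2, gave -0.62 ± 0.082 at 1 h and -0.93 ± 0.083 at 2 h. It was still lower at 6 and 24 h, by -0.21 ± 0.081 and -0.22 ± 0.081. Trib3, a target of Atf4, gave -0.84 ± 0.097, -1.02 ± 0.098 and -0.32 ± 0.096 at 1, 2 and 6 h. At 24 h Trib3 was higher, by 0.29 ± 0.095 (adjusted p = 0.0238). Ddit3, a stress transcription factor, was lower at 1 h (-0.44 ± 0.093) and higher at 24 h (0.40 ± 0.092).

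Among partners that rose, Dhx29, a helicase for structured leaders, gave 0.76 ± 0.088 at 6 h, and Bzw2, a relative of Eif5, gave 0.67 ± 0.072. At 2 h the release factor gene Etf1 gave 0.49 ± 0.058. By 24 h Mknk2, a kinase of eIF4E, was higher by 0.42 ± 0.066 and Pabpc4, a poly(A)-binding protein, lower by -0.40 ± 0.064. Mknk2 had been lower at 6 h, by -0.21 ± 0.067. Mknk1, the other kinase of eIF4E, was lower at 2, 6 and 24 h, by -0.47 ± 0.063, -0.21 ± 0.062 and -0.21 ± 0.062.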

How the data were processed

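Raw counts of reads per gene, deposited by the authors for 20 libraries, were analysed unchanged. FastQC, STAR, edgeR and the mm10 build are named in the submitters' processing notes. Not given in the sources used here are the tools' versions, the counting tool, its annotation and its use of strand. Groups come from the labels. 0 h replicate 2 repeats the description of replicate 1, yet their counts differ by more than sampling noise (chi-square per degree of freedom 9.28, against 2.99 to 57.4 over replicate pairs), so each was counted.

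Genes were filtered with filterByExpr (14420 kept, 99.9% of the counts) and scaled by TMM. All 20 libraries entered 1 robust quasi-likelihood fit in edgeR 4.0.16 (R 4.3.3) without covariates, checked on simulated data. P-values are two-sided and Benjamini-Hochberg adjusted over all tested genes, called under 0.05. Depth was 13734425 to 22687173 counts per library, and SEs cover the spread between libraries only. The SE is the fold change over the square root of F. Log2 ratios of counts within a library were compared by exact permutation.

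The genes and lists were chosen with earlier results of these data known. Library values are given for the up to 6 highest and 6 lowest called genes against 0 h (mean CPM of at least 5, no overlap) and for 13 genes of the cap-binding, eIF2 kinase and elongation steps; others named with them were picked after their values were seen. Exon lengths and positions come from GENCODE M21 (GRCm38), promoter sequences from RefSeq. The alternatives were RLE scaling, no filter, a CPM filter of 1 in 4 libraries, DESeq2 1.42.0, a replicate block, fits of the 8 libraries compared, 2 h replicates 3 and 4 only, and each library left out. Eif2s3y, Eif4e1b, Eef1akmt2, Eef1akmt3, Eef1akmt4, Eef1aknmt and Gcn1, which are on the lists, were not analysed here under these symbols. Lists were matched by symbol, and Eef1kmt4, described with the methyltransferases, is not on their list. Marker lists covered tendon fibroblasts, macrophages, Schwann cells, endothelium, pericytes, lymphocytes and chondrocytes. At 2 h, 4 tested tendon fibroblast markers were higher and 4 lower of 15, Schwann cell markers 2 and 0 of 6, endothelial 1 and 1 of 3, pericyte 0 and 0 of 5, and chondrocyte 1 and 0 of 4. Of all tested genes 20.2% were higher and 17.5% lower then. Of the lymphocyte markers 1 of 6 was in the table, at up to 0.23 CPM.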

Additional observations from a re-analysis of the deposited data

Results flagged for a closer look

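In 6 of 115 groups of 4 libraries, 1 library lay far from the other 3 by Dixon's ratio at its 95% critical value, and chance alone gives about 1 in 20. Eif2b3 read 38.7 CPM in 6 h replicate 3, against 43.9 to 44.3 CPM in the others. Eif3j1 read 21.8 CPM in 6 h replicate 4, against 19.5 to 19.8 CPM. Eef2 read 3894 CPM in 0 h replicate 1, against 3419.7 to 3499 CPM. Eif4g1 read 589.5 CPM in 1 h replicate 4, against 661 to 674 CPM. Eef2k read 78.3 CPM in 24 h replicate 1, against 67.8 to 69.3 CPM. The log2 ratio of Eif4a1 to Eif4a2 was 0.31 in 1 h replicate 2, against 0.24 in each of the others.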

How the results depend on the processing

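Counts of genes called kept within 1.5 times the reported count under RLE scaling, no filter, the CPM filter, DESeq2 and the replicate block, and no named call turned direction under any alternative. In fits of only the 8 libraries compared, 24 h against 0 h gave 6 higher and 13 lower. Such fits gave 5 and 0 for 2 h against 1 h, 4 and 2 for 6 h against 2 h, and 7 higher for 24 h against 6 h. The cause was not tested, and the share over all genes in the fits between treated times was not counted. Of the 36 calls at 2 h, 28 were kept in the fit of the 0 and 2 h libraries alone. With 2 h replicates 3 and 4 alone, 31 of the 36 were kept and 5 genes were lower. Leaving out each library in turn gave 6 to 20 higher and 2 to 3 lower at 1 h (6 without 1 h replicate 2, 7 without 0 h replicate 4, 20 without 2 h replicate 4), 25 to 30 and 7 to 11 at 2 h, 32 to 36 and 6 to 10 at 6 h, and 1 to 4 and 7 to 12 at 24 h (1 without 0 h replicate 2). Between times it gave 9 to 18 and 1 to 3 from 1 to 2 h, 7 to 22 and 5 to 8 from 2 to 6 h, 3 to 6 and 32 to 39 from 6 to 24 h, and 50 to 56 changed at any time. Without a filter, Eif2b3 at 1 h was 0.28 (adjusted p = 0.053). The log2 ratio differences at 1, 2, 6 and 24 h ranged over 0.28 to 0.31, 0.60 to 0.72, 0.50 to 0.53 and 0.077 to 0.14 for Eif4a1 to Eif4a2. They ranged over -0.53 to -0.41, -0.94 to -0.76, -1.08 to -0.96 and -0.35 to -0.23 for Eif4ebp1 to Eif4e, and over -0.06 to -0.02, -0.05 to 0.26, 0.16 to 0.31 and 0.058 to 0.11 for Eif4ebp1 to Eif4ebp2.

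Replicate numbers do not pair the libraries: of 40 same-number pairs 1 correlated above 0.1 (median -0.0039), and 2 of 20 libraries correlated best with their own number. With the replicate number as a block, 26 genes were higher and 8 lower at 2 h and 33 and 8 at 6 h, and Eif4ebp1 at 24 h was -0.24 (adjusted p = 0.063). The genes under 10 CPM had wide SEs; the part of depth in this was not tested.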
